A study of Mus musculus with 8 samples.

Results

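Emcn, Plvap, Pecam1, Cdh5, Esam, Eng, Flt1, Ramp2, Robo4 and Egfl7, 10 genes that mark the endothelium, were followed in cultures of mouse skin fibroblasts. They were chosen from the strain difference already seen on these same arrays, in which Emcn and Plvap had stood out as lower in Nd2-mutant cultures, so every strain value given for them is a description and carries no test. The array held 16 probes of the 10 genes among 25697 probes in all. A probe was tested if its detection p-value was under 0.01 on all 4 arrays of at least 1 strain, which 11 of the 16 probes, covering all 10 genes, and 10414 of the 25697 probes met.

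RNA of 8 mice of 12 months was hybridised to 8 Illumina MouseRef-8 v2.0 arrays, 1 per mouse. The Nd2-mutant group was the conplastic strain C57BL/6J-mtALR/LtJ (males 28 and 32, females 34 and 35), and the control group was the conplastic strain C57BL/6J-mtAKR/J (males 16 and 17, females 15 and 37). Both carry a C57BL/6J nuclear genome with mitochondria of another strain, so the controls are conplastic too, and the mutation lies in the mitochondrial gene of a subunit of NADH dehydrogenase. The cells were a dissociation of whole skin grown briefly and used at passage 1, with no sorting step described, so that vessel cells could be present beside fibroblasts. The question was which endothelial genes differed over all cultures of a strain and which followed a single culture.

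Endothelial cells line blood and lymph vessels, and skin is rich in capillaries. Their identity rests on junction proteins that join neighbouring cells, on receptors for vascular growth factors and guidance cues, and on surface proteins of the capillary wall. The transcription factors of the ETS family bind many endothelial promoters. In RNA of a whole culture, fewer cells of a type and less RNA per cell cannot be told apart.

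Intensities are quantile normalized, background-subtracted values on the linear scale, and differences are on the log2 scale after 16 was added, Nd2 mutant minus control unless stated otherwise. Between 10663 and 11350 probes were detected per array. The array of control mouse 15 stood apart from the rest. Its mean correlation with the other arrays was 0.934, against 0.963 to 0.974 for the other 7, and it held the highest value of 26.5% and the lowest value of 31.4% of the tested probes. The strain difference of each tested probe of the endothelial genes named above is therefore given with and without that mouse. Other results include that mouse unless stated otherwise. Fibroblast markers, 15 of 16 tested, were abundant on every array, with a summed intensity of 52413 to 58202 in Nd2-mutant and 43488 to 64402 in control cultures.

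All 11 tested probes of the 10 genes had a negative strain difference, as 49.8% of all tested probes did. Their differences ran from -1.20 to -0.08 with a median of -0.40, whereas the median over all tested probes was 0.00. On control mouse 15, 10 of the 11 probes, of 9 genes, had their highest value, against the 26.5% of all tested probes. On the log2 scale 8 of the 11 lay at least 1 above the mean of the other 7 arrays there, which was true of 4.79% of all tested probes. Without control mouse 15 the median of the members was -0.06, that of all tested probes was -0.01, and 7 of the 11 probes kept a negative difference. All 4 Nd2-mutant values lay below all 4 control values for 2 probes, those of Emcn and Plvap, where the background over all tested probes was 2.13%. Because the genes were picked on this contrast, nothing is read from these shares. For the strain difference limma gave an adjusted p under 0.05 for 0% of the tested probes, and at an unadjusted p under 0.05 3.13% were lower and 4.50% higher in Nd2-mutant cultures.

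**Figure D1:**
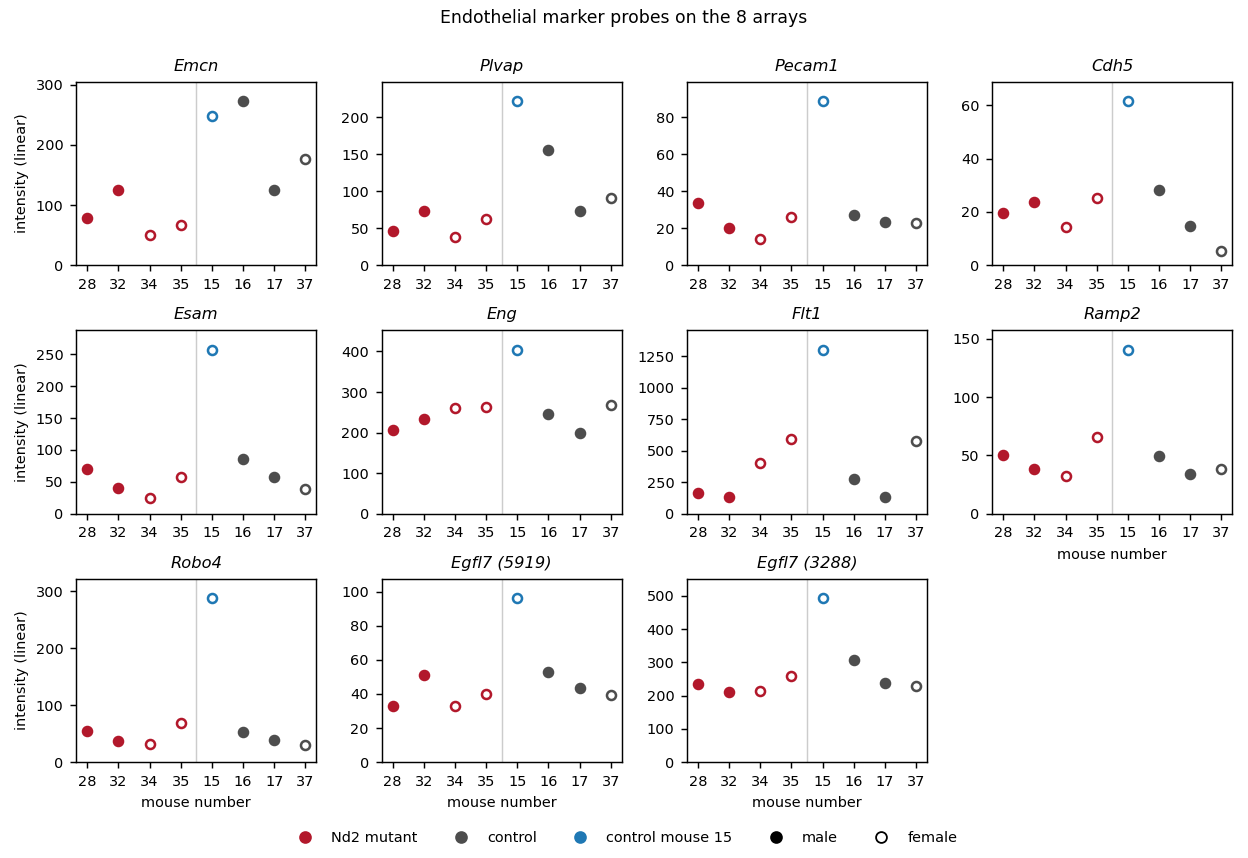
Intensity on the linear scale of the 11 tested probes of the 10 endothelial genes, by mouse number, with Nd2-mutant mice on the left and control mice on the right of each panel. Filled circles are males, open circles females, and blue is control mouse 15, which is the highest point in every panel but that of Emcn, where control mouse 16 is highest; the digits after Egfl7 are the last 4 of the probe.

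Promoter sequences were taken from a RefSeq-derived table of GRCm38.p6, in which 5 of the 10 genes (Emcn, Egfl7, Eng, Robo4 and Flt1) matched with 7 start sites. Plvap, Pecam1, Cdh5, Esam and Ramp2 were not matched. The 250 bases before the start are shown for 1 gene of each pattern described here: Emcn, which was lower in all Nd2-mutant cultures, Robo4, which was high in a single culture, and Flt1, whose values in males and females did not overlap. Capitals mark AGGAAG, a single form of the ETS motif, or its reverse complement CTTCCT. Other forms of that motif are not marked. The Emcn stretch is chr3:137340828-137341077 on the plus strand, that of Robo4 is chr9:37401722-37401971 on the plus strand, and that of Flt1 is chr5:147726012-147726261 on the minus strand, each written 5′ to 3′.
Emcn: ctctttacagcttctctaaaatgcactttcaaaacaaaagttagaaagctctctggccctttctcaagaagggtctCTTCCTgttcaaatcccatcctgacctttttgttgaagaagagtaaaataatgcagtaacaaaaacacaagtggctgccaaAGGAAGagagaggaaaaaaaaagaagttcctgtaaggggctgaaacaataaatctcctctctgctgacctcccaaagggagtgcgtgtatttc
Robo4: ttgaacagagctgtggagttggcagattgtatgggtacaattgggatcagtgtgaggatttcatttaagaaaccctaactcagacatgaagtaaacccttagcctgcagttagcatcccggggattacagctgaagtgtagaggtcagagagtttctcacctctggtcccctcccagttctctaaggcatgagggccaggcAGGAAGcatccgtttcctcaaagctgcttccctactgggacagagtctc
Flt1: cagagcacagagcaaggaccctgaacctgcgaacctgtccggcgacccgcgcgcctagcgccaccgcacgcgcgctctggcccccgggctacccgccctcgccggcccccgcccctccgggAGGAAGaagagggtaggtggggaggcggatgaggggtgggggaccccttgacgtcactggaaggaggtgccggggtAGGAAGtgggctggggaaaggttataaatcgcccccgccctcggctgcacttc

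The string AGGAAG was present in 6 of the 7 start sites of these genes, counted on both strands. Emcn had 2 matches, Robo4 1 and Flt1 2. Of all 32851 promoters, 29.5% held the string within the same 250 bases. The GATA motif AGATAA, the SOX motif ACAATG and the FOX motif GTAAACA, none of which overlap the ETS core in these stretches, had 0 matches on either strand in the 7 start sites, and they occur in 9.99%, 10.7% and 3.17% of all promoters. A match is a description of the letters and not a bound site.

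Emcn and Plvap were lower in every Nd2-mutant culture. Emcn encodes endomucin, a sialomucin on the surface of capillary and venous endothelium, and Plvap encodes the protein of the diaphragms that close endothelial fenestrae and caveolae. The intensity of Emcn (ILMN_1259365, chromosome 3) was 78.6, 124.3, 50.9 and 67.2 in Nd2-mutant mice 28, 32, 34 and 35 and 248.6, 272.0, 125.4 and 176.2 in control mice 15, 16, 17 and 37. The groups did not overlap, but the highest Nd2-mutant value, of mouse 32, and the lowest control value, of mouse 17, were 1.06 apart. Nd2-mutant cultures averaged 80.2 ± 31.5 (SD, n = 4) and control cultures 206 ± 67.3 (SD, n = 4), a control level 2.56 times that of the Nd2-mutant cultures, and the log2 difference was -1.20 (SE 0.27). Without control mouse 15 it was -1.10 (SE 0.29), and leaving out any 1 mouse gave -1.40 to -1.05.

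The intensity of Plvap (ILMN_2984110, chromosome 8) was 46.7, 72.6, 38.2 and 62.3 in the Nd2-mutant mice and 221, 155.8, 73.0 and 91.0 in the control mice, in the same order. Again no value crossed, and the nearest pair, mice 32 and 17, were 0.41 apart. Control mouse 15 was the highest here, at 2.07 times the mean of the other controls. Nd2-mutant cultures averaged 54.9 ± 15.4 (SD, n = 4) and control cultures 135 ± 67.4 (SD, n = 4). The difference was -1.01 (SE 0.30), or -0.76 (SE 0.25) without control mouse 15. Emcn and Plvap met the definition used for a difference that holds over all cultures, namely groups that do not overlap and no single array whose removal changes the sign or shrinks the difference over 1.5 times. That definition, with the Nd2 mutant lower, was met by 1.72% of all tested probes. Within males the differences were -0.81 for Emcn and -0.73 for Plvap, and within females they were -1.60 and -1.29, each from 2 mice against 2.

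Of the tested probes of other genes, the 5 with the profile most like that of Emcn over the 8 arrays were Fbxw5, Helz, Nap1l4, Jag1 and Btbd3, with Pearson r from 0.968 to 0.991. For Plvap these were Nfkb2, Vars, 2310003H01Rik, Cnnm2 and Cdk5, with r from 0.977 to 0.985. Emcn and Plvap correlated with each other at 0.929. None of these 10 neighbours is on the endothelial list used here, and the points share 2 strains and the same 8 arrays. All of the neighbours but Cnnm2 stand in the study's own list of genes lower in these samples, as do Emcn and Plvap. The r values therefore partly restate the strain difference on which Emcn and Plvap were chosen. Jag1 read 0.412 to 23.5 in Nd2-mutant and 22.1 to 68.5 in control cultures. With an Nd2-mutant value that low, it was tested only because all controls, where it was high, were detected.

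The junction genes Pecam1, Cdh5 and Esam followed control mouse 15. Pecam1 is the adhesion molecule CD31, which leukocytes and platelets also carry. Its tested probe (ILMN_2700982, chromosome 11) read 33.5, 20.3, 14.2 and 25.9 in the Nd2-mutant mice and 88.6, 27.1, 23.2 and 23.1 in the control mice. The other 3 controls lay inside the range of the Nd2-mutant cultures. The strain difference was -0.40 (SE 0.31) with all mice and -0.06 (SE 0.17) without control mouse 15. A second Pecam1 probe (ILMN_3147074), detected on 5 arrays and not tested, read 79.6 in control mouse 15 and 3.48 to 17.5 on the other 7.

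Cdh5 encodes VE-cadherin, the cadherin of endothelial adherens junctions. Its probe (ILMN_2866951, chromosome 8) was detected on 7 arrays and read 19.5, 23.8, 14.3 and 25.2 in Nd2-mutant mice and 61.5, 28.1, 14.7 and 5.16 in control mice. The controls thus held both the highest and the lowest value. The difference was -0.08 (SE 0.33), turned to 0.25 (SE 0.23) without control mouse 15, also changed sign without Nd2-mutant mouse 34 and shrank without control mouse 16.

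Esam is an immunoglobulin-family adhesion molecule of endothelial tight junctions. Its probe (ILMN_2690839, chromosome 9) read 70.035, 40.3, 25.1 and 58.3 in the Nd2-mutant mice and 256.7, 85.9, 56.9 and 38.6 in the control mice. The value of control mouse 15 was 4.25 times the mean of the other controls, and the groups overlapped with and without it. The difference shrank from -0.73 (SE 0.44) to -0.26 (SE 0.28).

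Robo4 had the largest ratio of control mouse 15 to the mean of the other controls among the tested members. It is a roundabout-family receptor restricted largely to endothelium. Its tested probe (ILMN_2942011, chromosome 9) read 55.4, 36.9, 31.7 and 68.4 in the Nd2-mutant mice and 287, 53.2, 38.2 and 30.5 in the control mice. Control mouse 15 reached 7.08 times the mean of the other controls, and the difference went from -0.45 (SE 0.51) to 0.16 (SE 0.22) without it. A further 2 Robo4 probes were detected on 0 arrays.

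Ramp2 is the partner that turns the calcitonin receptor-like receptor Calcrl into a receptor for adrenomedullin. Its probe (ILMN_2661422, chromosome 11) read 50.4, 38.3, 32.2 and 65.7 in the Nd2-mutant mice and 140.4, 49.8, 34.3 and 38.5 in the control mice. Apart from control mouse 15, all values lay between 32.2 and 65.7, with both ends in Nd2-mutant mice. The difference of -0.25 (SE 0.33) turned to 0.12 (SE 0.19) without it, and it also shrank over 1.5 times without Nd2-mutant mouse 34.

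Eng encodes endoglin, a co-receptor for ligands of the TGF-β family that mesenchymal cells also carry. Its probe (ILMN_1229161, chromosome 2) read 206.9, 233.6, 261 and 264 in the Nd2-mutant mice and 404, 245, 199 and 268 in the control mice. Control mouse 15 stood 1.70 times above the mean of the other controls, the smallest such ratio after that of Emcn. The difference was -0.16 (SE 0.20) and became 0.03 (SE 0.15) without it; leaving out Nd2-mutant mouse 28 also shrank it over 1.5 times.

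Flt1 encodes the VEGF receptor VEGFR1. Its tested probe (ILMN_1227926, chromosome 5) read 166, 134.9, 403 and 596 in the Nd2-mutant mice and 1301, 277, 131.5 and 576 in the control mice. In both strains the 2 female cultures were higher than the 2 male ones. The strain difference was -0.57 (SE 0.64), and it fell to -0.03 (SE 0.55) without control mouse 15. It also shrank over 1.5 times without Nd2-mutant mice 28 or 32. The second Flt1 probe (ILMN_2732721) was detected on 0 arrays.

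Egfl7 is secreted by endothelial cells into the matrix, and 2 of its 3 probes were tested. Probe ILMN_1215919 (chromosome 2) read 33.2, 51.1, 33.0 and 40.1 in the Nd2-mutant mice and 96.0, 52.7, 43.7 and 39.6 in the control mice. Probe ILMN_3163288 read 234, 210.1, 214 and 260.1 in the Nd2-mutant mice and 492, 307, 239 and 229.6 in the control mice. Both were highest in control mouse 15 and had differences of -0.37 (SE 0.22) and -0.38 (SE 0.22), which shrank to -0.16 (SE 0.15) and -0.15 (SE 0.14) without that mouse. The third probe (ILMN_2631417) was detected on 1 array and was not tested. It read 10.0 to 15.2 in the Nd2-mutant mice and 5.18 to 7.01 in the control mice. These low values run opposite to those of the tested probes, and nothing is read from them.

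Without control mouse 15 the difference turned or shrank over 1.5 times for 9 of the 11 probes, all but those of Emcn and Plvap, and 4 of the 9 changed sign, namely Cdh5, Eng, Ramp2 and Robo4. Over all tested probes such a turn or shrinkage was seen for 49.0% without that mouse and for 86.5% without at least 1 of the 8 mice. Nd2-mutant mouse 34 was the lowest array for 6 of the 11 probes, and for 8.81% of all tested probes. Among the other 3 controls, mouse 16 was the highest array for Emcn and held rank 1 to 5 over the members.

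**Figure D2:**
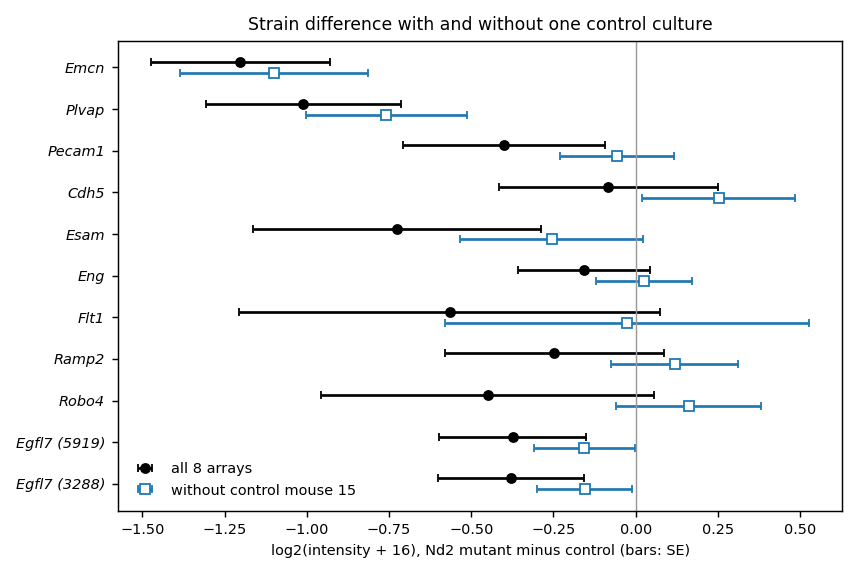
Difference of log2(intensity + 16), Nd2 mutant minus control, for each tested probe with all 8 arrays (black circles) and without control mouse 15 (open blue squares); bars are SE. Emcn and Plvap stay at -1.10 and -0.76 without that mouse, while the other 9 probes move to between -0.26 and 0.25.

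The sex of the mice was not used to choose the genes, and Flt1 had lower values in all 4 males than in any female. Its intensity ran from 131.5 to 277 in the 4 males and from 403 to 1301 in the 4 females, without overlap. The mean was 178 ± 68.4 (SD, n = 4) in males and 719 ± 398 (SD, n = 4) in females. The difference, male minus female with strain as a term, was -1.85 (SE 0.30), with an exact 2-sided permutation p of 0.0286, the smallest that 4 mice against 4 can give. In limma the unadjusted p was 0.000132 and the adjusted p over all tested probes was 0.178, so that the difference did not pass. The adjusted p ranged from 0.00447 with array weights to 0.731 without Nd2-mutant mouse 35, and the difference was negative under 17 of 17 alternatives. Without control mouse 15 it was -1.57 (SE 0.24, limma adjusted p 0.0825), with the remaining females between 403 and 596.

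Eng, the other member whose sexes did not overlap, read 199 to 245 in males and 261 to 404 in females. The difference was -0.39 (SE 0.17), with an exact permutation p of 0.0286 and a limma adjusted p of 0.582. Without control mouse 15 it was -0.25 (SE 0.13), and the females then lay between 261 and 268. All 4 male values lay below all 4 female values for 2.67% of all tested probes. Of the other 9 probes none had a limma adjusted p under 0.775. Over all tested probes limma gave an adjusted p under 0.05 between the sexes for 0.0192%, and at an unadjusted p under 0.05 4.45% were lower and 3.86% higher in males.

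The interaction of strain and sex was positive for all 11 probes, from 0.22 to 0.91, that is, the strain difference was more negative in females. Control mouse 15, a female, was the highest array for 10 of the 11 probes, and no interaction was fitted without it. The share of positive interactions over all tested probes was not counted, so nothing is read from the shared sign. The smallest unadjusted p was 0.166 and limma gave 0 of the 11 an adjusted p under 0.05. Over all tested probes 1.77% had an unadjusted and 0.00960% an adjusted p under 0.05 for the interaction. For Robo4, with the largest interaction, the strain difference was 0.01 within males and -0.90 within females.

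**Figure D3:**
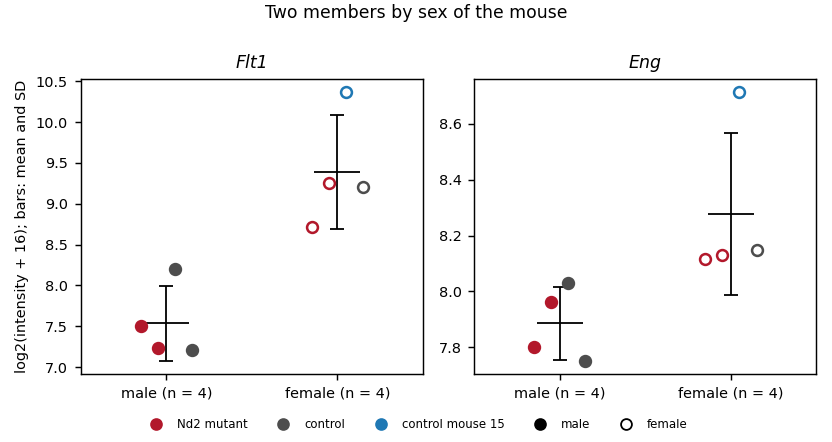
Log2(intensity + 16) of Flt1 and Eng in the 4 male and 4 female cultures, with the horizontal line and bars giving mean and SD; red is Nd2 mutant, grey control and blue control mouse 15. The 4 males lie below the 4 females in both panels, and control mouse 15 is the highest female.

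A further 66 endothelial genes were read in the same way, of which 63 had a probe and 24 were tested. None of the 24 had an adjusted p under 0.05 in limma. By the probe with the smallest p, 4 were lower (Mcam, Ednrb, Mmrn2 and Tinagl1) and 1 higher (Jam2) at an unadjusted p under 0.05. Of all tested probes 3.13% were lower and 4.50% higher, counted per probe and not per gene. A gene with several probes has more chances to pass. Of the 4 lower genes, Mcam, Ednrb and Tinagl1 stand in the study's own list of genes lower in these samples. They are therefore not independent evidence of direction.

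Mcam, the adhesion molecule CD146 of endothelium and pericytes, had 3 tested probes with differences of -1.16 (SE 0.28), -1.06 (SE 0.33) and -1.03 (SE 0.27). Its probe ILMN_2614531 read 39.5, 54.2, 36.7 and 57.1 in the Nd2-mutant mice and 233.5, 111, 69.5 and 123 in the control mice. The groups did not overlap, and the difference was -0.88 without control mouse 15. Mmrn2, a matrix protein of endothelium, read 5.66 to 23.4 in Nd2-mutant mice and 144.6, 49.97, 23.3 and 20.8 in control mice, and its difference of -0.96 (SE 0.42) went to -0.51 without control mouse 15. It was detected on 7 arrays and was tested only because all 4 controls were detected. Tinagl1, a matrix protein of vessels and smooth muscle, was highest in control mouse 16 and differed by -0.59 (SE 0.17). Ednrb, the endothelin receptor that melanocytes also carry, was highest in control mouse 37, and its brighter probe differed by -1.01 (SE 0.33). Jam2, a junction adhesion molecule, differed by 0.64 (SE 0.20) on probe ILMN_1227559, but by 0.11 (SE 0.20, limma unadjusted p 0.576) on its brighter probe ILMN_2592881. The angiopoietin receptor Tek differed by 0.49 (SE 0.33) and the sialomucin Cd34 by -0.09 (SE 0.19), neither past an unadjusted p of 0.05.

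Several genes that help define endothelium, Cldn5, Vwf, Icam2, Tie1 and Sox18, had their highest value in control mouse 15. Others, such as Kdr, Erg and Tal1, were detected on 0 arrays. Tek and Cd34 were detected on all 8 arrays and were not highest in that mouse. Tek read 91.2 in Nd2-mutant mouse 35 and 49.2 in control mouse 15. Cd34 read 33.1 in control mouse 16 and 20.6 in control mouse 15. The tight junction gene Cldn5 read 129.8 there, and 1.87 to 24.7 in the Nd2-mutant and 10.0 to 18.9 in the other control mice. The blood clotting factor gene Vwf read 53.4 against at most 16.5 on the other 7 arrays, the adhesion gene Icam2 66.0 against at most 17.1, the receptor gene Tie1 30.3 against at most 6.07, and the transcription factor gene Sox18 85.2 against at most 23.1. Tie1 was detected on the array of control mouse 15 alone, so no ratio is given for it, and Cldn5 and Vwf were detected on 4 arrays each. None of these 5 passed the filter on detection, and no strain difference was fitted for them. Of the other endothelial genes 20 were detected on at least 1 array without being tested, and 16 of them were highest in control mouse 15, as were 25.1% of all probes in that position. The exceptions were Selp, Podxl, Ptprm and Procr. Of the 24 other endothelial genes that were tested, 10 were highest in control mouse 15 by their brightest probe, beside 26.5% of all tested probes. A further 19 genes were detected on 0 arrays, among them the VEGF receptor Kdr and the transcription factors Erg and Tal1. Kdr read 6.27 in control mouse 15 and was highest, at 8.79, in Nd2-mutant mouse 34. Fli1 was detected on 1 array.

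**Figure D4:**
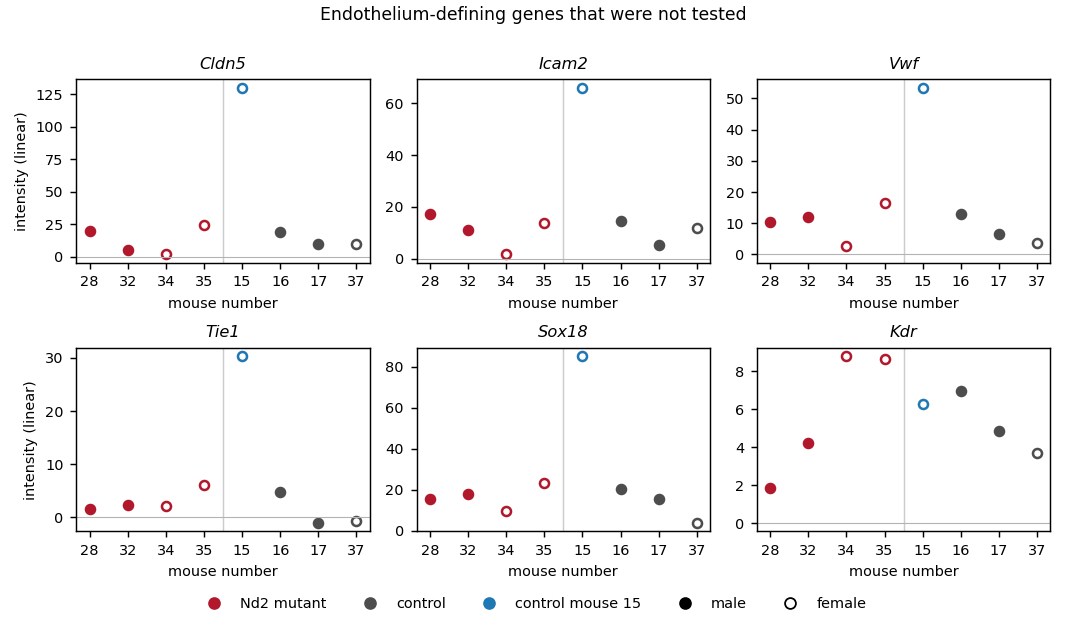
Intensity on the linear scale of 6 endothelial genes that were not tested, by mouse number; filled circles are males, open circles females, red Nd2 mutant, grey control and blue control mouse 15. That mouse is far above the others for Cldn5, Icam2, Vwf, Tie1 and Sox18, while Kdr stays at or below 8.79 on all arrays.

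In controls 16, 17 and 37 Emcn and Plvap were above every Nd2-mutant value, which is the contrast on which they were chosen. Cldn5, Vwf, Icam2, Tie1 and Sox18 did not exceed the highest Nd2-mutant value in the same 3 cultures. These 5 genes did not pass the filter on detection, so that a strain difference could hardly show in them. Robo4, Ramp2, Flt1 and the tested Pecam1 probe also stayed at or under the highest Nd2-mutant value in these 3 controls. Esam, Cdh5 and both Egfl7 probes exceeded it in control mouse 16 alone, and Eng in control mouse 37 alone.

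The ligands and partners of the members were 30 genes, of which 21 were tested, and none had a limma adjusted p under 0.05. At an unadjusted p under 0.05, Tgfb2 (-0.82, SE 0.27), Tgfb3 (-0.59, SE 0.19), Ramp1 (-0.71, SE 0.24) and Nrp1 (-0.47, SE 0.21) were lower in Nd2-mutant cultures, each by its probe with the smallest p. Of all tested probes 3.13% were lower at that unadjusted p, counted per probe and not per gene. Ramp1, detected on 6 arrays, and Tgfb2, detected on 7, were tested only because all 4 controls, where they were high, were detected. The brighter Nrp1 probe ILMN_1237197 differed by -0.28 (SE 0.20). Tgfb2 and Tgfb3 are TGF-β ligands, Ramp1 is a relative of Ramp2, and Nrp1 is a co-receptor for VEGF. For the TGF-β receptor Tgfbr2, the dim probe ILMN_1242086 differed by 0.71 (SE 0.32), with 108.5 in Nd2-mutant mouse 28 and 23.2 to 34.04 in the other Nd2-mutant mice, while its brighter probe ILMN_2760979 differed by 0.24 (SE 0.22, limma unadjusted p 0.289). Tgfb2 and Tgfb3 also stand in the study's list of lower genes.

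Vegfa, the main ligand of the VEGF receptors, differed by -0.37 on each of its 2 tested probes (SE 0.22 and 0.21), and the Flt1 ligand Pgf was detected on 2 arrays. The Robo ligands Slit2 and Slit3 differed by 0.12 (SE 0.17) and 0.03 (SE 0.20). Calcrl, the receptor that Ramp2 serves, was detected on 0 arrays, while its ligand Adm was read at 210.0 to 577 on all 8. Between the sexes, male minus female, Adm differed by -0.63 (SE 0.15, limma unadjusted p 0.00228, adjusted p 0.348). Acvrl1, the receptor kinase that works with endoglin, differed by 0.45 (SE 0.13, unadjusted p 0.00741, adjusted p 0.436), the opposite direction to Eng.

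Markers of other cell types were read beside these values. Pericyte and smooth muscle markers, 10 of 16 tested, all had a negative strain difference on the probe with the smallest p, and 6 (Mcam, Actg2, Cspg4, Myh11, Notch3 and Lmod1) had an unadjusted p under 0.05, none an adjusted one. Of all tested probes, 49.8% had a negative difference and 3.13% were lower at that unadjusted p, counted per probe and not per gene. Actg2, Cspg4 and Mcam also stand in the study's list of lower genes. Their summed intensity was 13328 to 16299 in Nd2-mutant and 16281 to 18593 in control cultures. Acta2, smooth muscle actin, was the most abundant of them, with 2 of its 4 probes positive and 2 negative. The pericyte markers Rgs5, Higd1b and Kcnj8 read at most 7.71. Without control mouse 15 the differences of Actg2, Myh11 and Mcam were -1.51, -0.72 and -0.88. The part of pericytes or smooth muscle cells in the difference of Emcn and Plvap was not tested.

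Of the fibroblast markers 10 of 15 were highest in control mouse 15, among them Thy1 (12618), the most abundant, and Dpt (383). Over all tested probes the share highest there was 26.5%. The summed fibroblast markers were 1.11 times the next array in control mouse 15, and the summed members 2.33 times. The sum of the 24 other tested endothelial genes was 1.16 times the next array there. Flt1 alone made up 1301 of the 3501 summed over the members in that mouse. Macrophage and leukocyte markers, 9 of 19 tested, were highest in Nd2-mutant mouse 35, with a summed intensity of 2036 against 466 to 544 in the other Nd2-mutant mice and 380 to 718 in the controls; Laptm5 was the most abundant and 0 of the 9 were highest in control mouse 15. The platelet list had 2 of 7 genes tested, with Gp1bb the most abundant and sums of 59.6 to 125 against 33.2 to 103. Keratinocytes (2 of 13 genes on the array tested, led by Krt14) summed to 189 to 1118 in Nd2-mutant and 303 to 903 in control mice. The melanocyte list had only Ednrb tested. Schwann cell markers (4 of 7, led by Pmp22) summed to 1507 to 2522 against 1142 to 2771, adipocyte markers (2 of 9, led by Lpl) to 2254 to 7008 against 1618 to 5074, and skeletal muscle markers (2 of 9, led by Acta1) to 267 to 972 against 784 to 1252. Their part in the endothelial values was not tested.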

How the data were processed

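Total RNA of skin fibroblasts from 4 Nd2-mutant and 4 control mice was run on Illumina MouseRef-8 v2.0 arrays, and groups, sex and mouse numbers were taken from the sample labels. The authors extracted the data in GenomeStudio (version not given in the sources used here), quantile normalized the intensity of each probe and subtracted background; the deposited intensity values are linear. Beside each intensity the authors deposited a detection p-value from the same software. The 2 deposited tables hold the same bytes, so that normexp, quantile normalization without background correction and chip as a block, planned as alternatives, were not run.

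Negative intensities were raised to 0, and log2 was taken after adding 16. Probes detected at a p-value under 0.01 on all 4 arrays of a strain were tested with limma 3.58.1 (R 4.3.3). Its 2-sided p-values were adjusted by Benjamini-Hochberg across the 10414 tested probes, at a threshold of 0.05. The methods' t-test was an alternative. The fits were tested on simulated data. Sex was compared with strain as a term, and also by exact permutation of 4 against 4 mice. Each mouse is 1 culture.

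Gene symbols were matched to the array, 6 of them through RefSeq synonyms, and 9 of 209 listed genes had no probe. The members and lists were chosen with earlier results of these data known. The named genes were all members, list genes at an unadjusted p under 0.05 (strain) or 0.01 (sex), a set of defining genes and ligands named whatever their values, the 5 nearest profiles of Emcn and Plvap, and the most abundant gene of each marker list. Names outside this rule (such as Actg2, Myh11, Dpt and Selp) were given after their values were seen, as was the limit of 1 above the other 7 arrays. Precision is limited by having 8 arrays.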

Additional observations from a re-analysis of the deposited data

Results flagged for a closer look

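In each strain and each sex of 4 mice, the highest or lowest value was set apart when its gap to the next value was a large share of the group's range (above Dixon's 95% critical value for 4 values). Of 68 groups checked 13 were set apart. For independent groups of normally distributed values chance gives about 1 in 20, or 3.4. These groups are not independent, because each array falls in a strain group and a sex group, and the intensities are linear. The counts are therefore a description. Among the tested member probes 9 of 44 groups were set apart, and the value set apart was that of control mouse 15 in all 9. Among the control mice these were Pecam1 (gap over range 0.939), Ramp2 (0.854) and Robo4 (0.912). Among the female mice they were Pecam1 (0.842), Esam (0.857), the Egfl7 probes ILMN_1215919 (0.888) and ILMN_3163288 (0.834), Eng (0.955) and Robo4 (0.852). Emcn, Plvap, Cdh5 and Flt1 had no group set apart, although Plvap, Cdh5 and Flt1 were also highest in that mouse.

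The other 4 were summed levels of marker lists among the Nd2-mutant mice. Mouse 35 was apart for pericytes and smooth muscle (0.853), for macrophages and other leukocytes (0.950) and for melanocytes, a list with a single tested gene, Ednrb (0.912). Mouse 32 was apart for keratinocytes (0.883). No explanation of these values was tested.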

How the results depend on the processing

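No paired analysis was possible because no mouse number occurs in both strains. The 2 planned normalizations and the chip block were not run. Emcn and Plvap kept a negative strain difference under 19 of 19 alternatives each, from -1.60 to -0.81 and from -1.29 to -0.69 over the 18 on a log2 scale, and by -125 and -80.3 intensity units without the log. The number of the 11 member probes with a negative difference was 7 in males alone, and 7 to 11 when each mouse was left out, with 7 without control mouse 15. Over all tested probes, the strain gave 0 adjusted calls in limma (326 lower and 469 higher at an unadjusted p under 0.05), 3 with no filter on detection and 1 with the methods' t-test. The sex difference gave 2 calls, but 1 with 50 added before log2, 0 without the log, 8 when detection on at least 1 array sufficed, 4 when detection on all 8 was asked, 391 with array weights and 1 without strain as a term; leaving out 1 mouse gave 0 (without any 1 of the Nd2-mutant mice) to 11 (without control mouse 15), with 8 without control mouse 37 and 1 without control mouse 16 or 17. With array weights 1 member, Flt1, passed, against 0 otherwise. The interaction gave 1 call, but 0 with 1 added, on the linear scale or with no filter, and 2 with a trend. The cause of these changes was not tested. Cdh5 was not tested where detection on all 8 arrays was asked. Levels near background, such as those of Pecam1 and Cdh5, depend on the value added before log2.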

Other observations

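The profile of Flt1 over the 8 arrays was set beside those of other genes after its sex difference had been seen. The 5 nearest tested probes of other genes were Efna5 (Pearson r 0.990), Utx (0.981), Satb1 (0.969), B230312I18Rik (0.962) and 6330569M22Rik (0.957), over 8 arrays. Efna5 is an ephrin ligand and Satb1 a chromatin organiser, and Utx is a histone demethylase gene on the X chromosome that escapes inactivation. Efna5 read 125 to 329 in the Nd2-mutant and 126 to 442 in the control cultures. Among the members, Eng was nearest to Flt1 (r 0.916) and Emcn farthest (r 0.241). The points share sex, strain and the array of control mouse 15, so that the values are a description.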
